A study of Homo sapiens with 16 samples.

Results

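The comparison set 2 libraries of 6T-CEM cells carrying a short hairpin RNA against SH2D1A (sh-SH2D1A) at day 5 against 2 libraries of the same cells and day carrying a control hairpin (sh-NC). These are 4 of the 16 messenger RNA libraries of the series, and their groups were taken from the labels. Of 64252 gene identifiers in the table, 19482 had enough counts to be tested. 6T-CEM is labelled as a T-cell acute lymphoblastic leukaemia (T-ALL) line. The series also holds 6T-CEM at day 10 and the T-ALL line Jurkat at 2 days, with the same hairpin labels. Neither the starting point of the day count nor the hairpin sequences or their number are labelled, and nothing says that paired libraries came from separate cultures. The p-values below therefore measure the spread between libraries, which may be technical.

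SH2D1A encodes SAP, a small protein made almost wholly of an SH2 domain. SAP binds the tails of the SLAM family of lymphocyte surface receptors and brings the kinase FYN to them, which links these receptors to T cell receptor signalling, and inherited loss of SAP causes X-linked lymphoproliferative disease. CHI3L2, named with SH2D1A in the title of the series, encodes a secreted chitinase-like protein that lacks chitinase activity. The RAS-ERK and NF-kB pathways, which lie below the T cell receptor, drive growth, survival and activation genes in T cells.

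Total counts were 28972395 and 27217899 in the sh-SH2D1A libraries (replicates 1 and 2) and 29838963 and 27942231 in the sh-NC libraries, within a range of 27217899 to 33788024 over the series. Genes of the mitochondrial genome took 7.98% and 9.19% of the counts with sh-SH2D1A, against 7.44% and 7.63% with sh-NC. The 2 sh-SH2D1A libraries differed from each other by a chi-square of 21.99 per degree of freedom over genes, the 2 sh-NC libraries by 9.37, and the pairs of the other 6 groups by 4.66 to 8.76. The difference between the sh-SH2D1A libraries followed the GC content of the genes. From the fifth of genes with the lowest GC content to the fifth with the highest, the median log2 ratio of replicate 2 over replicate 1 ran from 0.27 to -0.37 with sh-SH2D1A and from 0.11 to -0.13 with sh-NC. Over 10078 genes with a mean of at least 10 CPM (counts scaled to a common library total), Spearman's rho of GC content with these ratios was -0.797 and -0.52, and with the change between the arms it was -0.10. These correlations run across genes, which are not independent replicates, and the 2 libraries of a pair do not show which of them stands apart. The part of GC content and of the mitochondrial share in single changes was not tested beyond the runs given below.

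**Figure D1:**
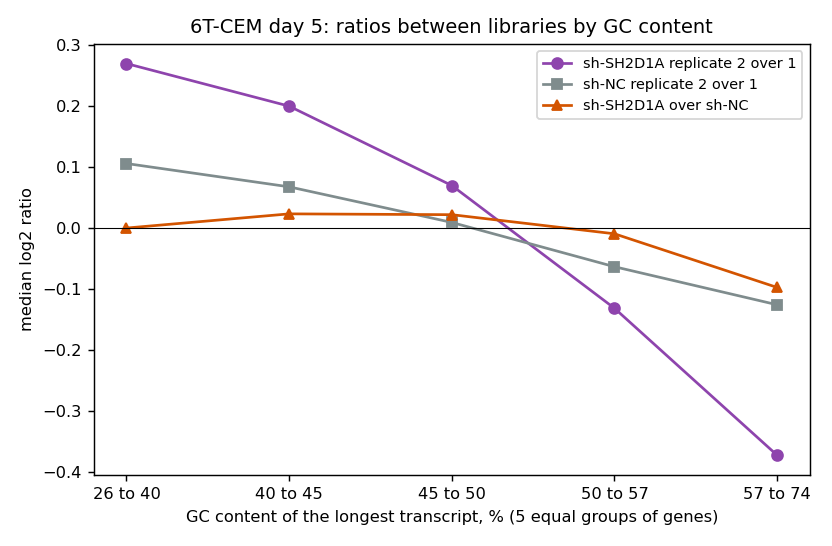
Median log2 ratio between libraries (vertical axis) in 5 groups of genes ordered by GC content of their longest transcript (horizontal axis, %), for genes with a mean of at least 10 CPM. The ratio of the 2 sh-SH2D1A libraries falls across the groups to -0.37, that of the 2 sh-NC libraries to -0.13, and the change of sh-SH2D1A over sh-NC lies between -0.10 and 0.02 in all 5.

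Defining T cell genes were present in all 4 libraries. CD3E, a signalling chain of the T cell receptor complex, had 389.8 and 429 CPM in the sh-SH2D1A libraries, against 385 and 387 CPM in the sh-NC libraries. LCK, the kinase that starts signalling from that receptor, had 377 and 311 CPM with sh-SH2D1A, against 380.3 and 343 CPM with sh-NC, and BCL11B, a transcription factor of T cell commitment, had 279 and 281 CPM with sh-SH2D1A, against 304 and 299 CPM with sh-NC. CD2, an adhesion receptor of T cells, was near the bottom of the range at 2.44 and 3.22 CPM with sh-SH2D1A, against 3.87 and 3.85 CPM with sh-NC. None of the 10 T cell markers passed edgeR's test, with 2 higher and 2 lower at an unadjusted p under 0.05, and the DESeq2 Wald test called 1 higher and 2 lower. Of all 19482 tested genes 1486 were higher and 1803 lower at that unadjusted p, and DESeq2 called 5.74%. Most genes of other cells were low, with 7 of 10 B cell and 8 of 12 myeloid markers under 1 CPM in all 4 libraries. MS4A1 and CD22 of B cells and S100A8, S100A9 and ELANE of myeloid cells were at 0 in every library. The summed B cell list was 27.6 and 23.1 CPM with sh-SH2D1A, against 37.7 and 30.7 CPM with sh-NC. Without its top gene it was 6.88 and 8.09 CPM with sh-SH2D1A, against 8.82 and 9.12 CPM with sh-NC. The summed myeloid list was 19.3 and 23.5 CPM with sh-SH2D1A, against 17.7 and 19.7 CPM with sh-NC. Without its top gene it was 2.84 and 12 CPM with sh-SH2D1A, against 7.24 and 9.78 CPM with sh-NC. Erythroid markers summed to between 10.5 and 11.5 CPM with sh-SH2D1A, against between 10.8 and 14.9 CPM with sh-NC, most of it from EPOR, and HBG1 was at 0 in all 4. Epithelial and packaging cell markers other than VIM, an intermediate filament gene that T cells also express, summed to 6.61 and 4.01 CPM with sh-SH2D1A, against 6.06 and 4.51 CPM with sh-NC, with CDH1 at 0 throughout. VIM itself had 503 and 488 CPM with sh-SH2D1A, against 703 and 713 CPM with sh-NC, and its log2 change of -0.51 ± 0.10 passed (adjusted p = 0.0402 by edgeR, 0.379 without sh-NC replicate 1 and 0.461 without sh-NC replicate 2). In RNA of a whole culture, fewer cells with a transcript and less of it per cell cannot be told apart.

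At day 5 the falls outnumbered the rises. The transcripts that fell included SH2D1A and CHI3L2, genes of sterol and glucose metabolism, feedback genes of ERK and NF-kB signalling, and the survival gene BCL2. The transcripts that rose included EOMES, the recombinase gene RAG1 and the pseudokinase gene TRIB2. By edgeR's quasi-likelihood test with Benjamini-Hochberg adjustment, 118 genes were higher and 294 lower with sh-SH2D1A at an adjusted p under 0.05, which is 0.606% and 1.51% of the 19482 tested (2.11% together). A gene past this threshold is described as having passed. Of these, 70 rose and 108 fell by 2-fold or more. Both libraries of an arm lay on one side of both of the other for all 412, and for 48.6% of all tested genes. The median log2 change was 1.09 among the 118, -0.87 among the 294, and 0.00 over all tested genes. Without sh-SH2D1A replicate 1 the same fit gave 1178 higher and 1687 lower (13.8% of those tested), and without replicate 2 it gave 763 higher and 1376 lower (10.2%). In these runs the spread within an arm comes from the 2 sh-NC libraries alone. They were the closer pair, with a chi-square of 9.37 per degree of freedom, against 21.99 for the sh-SH2D1A pair. Whether the 412 genes pass in them is therefore not a separate check of the sh-SH2D1A libraries. Without sh-NC replicate 1 the counts were 169 and 188 (1.71%), and without sh-NC replicate 2 they were 136 and 162 (1.42%). With a smooth function of GC content for each library in the fit, an alternative chosen after seeing the data, 1012 were higher and 1495 lower (12.9%), the 412 among them.

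**Figure D2:**
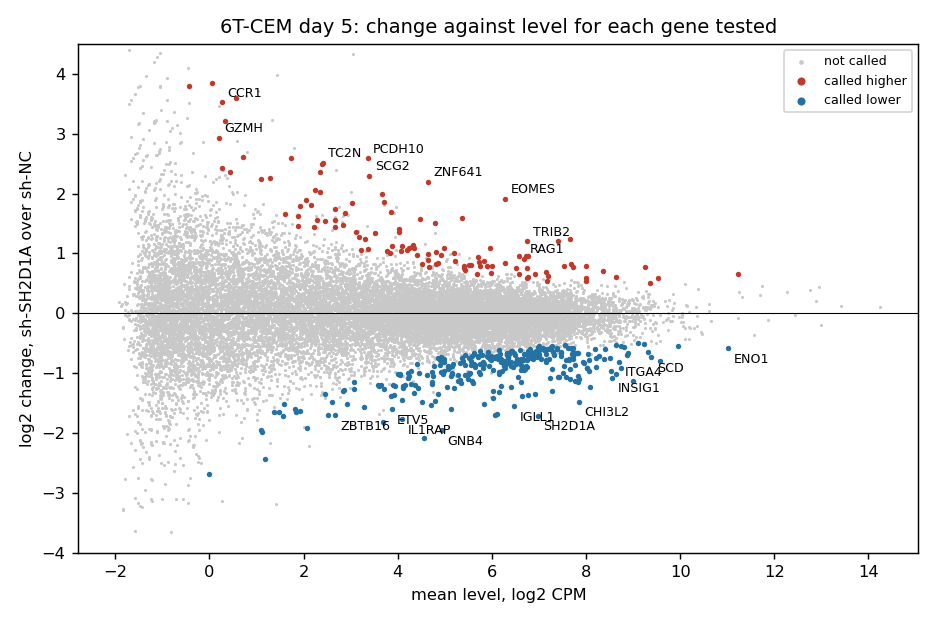
Log2 change of sh-SH2D1A over sh-NC (vertical axis) against mean level in log2 CPM (horizontal axis) for the tested genes of 6T-CEM at day 5, with genes that passed in red (118 higher) and blue (294 lower). SH2D1A and CHI3L2 lie among the well-expressed genes that fell, at -1.71 and -1.47, and EOMES at 1.92. 31 genes lie outside the vertical range.

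SH2D1A (ENSG00000183918, chromosome X, 124227868 to 124373197, hg38, GENCODE 29) had 55.1 and 62.2 CPM in the sh-SH2D1A libraries, against 187 and 197 CPM in the sh-NC libraries. The 2 arms did not overlap, and the mean with sh-SH2D1A was 30.5% of that with sh-NC. The log2 change was -1.71 ± 0.12 (adjusted p = 0.00191 by edgeR). CHI3L2 (ENSG00000064886, chromosome 1, 111200771 to 111243440) had 114 and 130.2 CPM in the sh-SH2D1A libraries, against 343 and 335 CPM in the sh-NC libraries. Again each sh-SH2D1A library was below each sh-NC library, and the log2 change was -1.47 ± 0.12 (adjusted p = 0.00191). CHI3L2 is named in the title of the series, so its fall is not independent evidence of a direction. The other 2 chitinase family genes that were tested did not pass.

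Among SLAM receptors and their partners, 1 of 15 tested genes passed, where 2.11% of all tested genes passed. INPP5D, which encodes the lipid phosphatase SHIP1 that acts below SLAM and antigen receptors, had 31.7 and 30.02 CPM in the sh-SH2D1A libraries, against 54.6 and 49.4 CPM in the sh-NC libraries. Its libraries did not overlap, and its log2 change was -0.75 ± 0.14 (adjusted p = 0.0345, 0.282 without sh-NC replicate 1 and 0.13 without sh-NC replicate 2). The receptor gene CD84 had 87.2 and 92.9 CPM with sh-SH2D1A, against 116 and 114 CPM with sh-NC and did not pass (adjusted p = 0.168). SLAMF6, another receptor that binds SAP, had 24.1 and 23.9 CPM with sh-SH2D1A, against 29.9 and 32.8 CPM with sh-NC (adjusted p = 0.263). FYN had 78.7 and 82.8 CPM with sh-SH2D1A, against 88.1 and 81.9 CPM with sh-NC, with arms that overlapped. The median log2 change over the 15 was -0.22, against 0.00 over all tested genes.

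The T cell receptor list held 37 tested genes, of which 1 fell and none rose, with a median log2 change of -0.08. Of all tested genes 1.51% fell and 0.606% rose. CD4, the co-receptor for class II antigen presentation, had 11.5 and 10.4 CPM in the sh-SH2D1A libraries, against 23.6 and 20.2 CPM in the sh-NC libraries. The sh-SH2D1A libraries were well below the controls, and the log2 change was -1.01 ± 0.20 (adjusted p = 0.0365, 0.192 without sh-NC replicate 1 and 0.0541 without sh-NC replicate 2). CD247, the zeta chain of the receptor complex, had 27.7 and 23.1 CPM with sh-SH2D1A, against 46 and 40.1 CPM with sh-NC and did not pass (adjusted p = 0.053). CD3G, another chain, had 192 and 239 CPM with sh-SH2D1A, against 143 and 162 CPM with sh-NC (adjusted p = 0.106). The 12 tested costimulatory and inhibitory receptors gave no call by edgeR, with 1 higher and 3 lower at an unadjusted p under 0.05, and none by DESeq2. Their median was -0.27. At that unadjusted p 1486 of all 19482 tested genes were higher and 1803 lower, and DESeq2 called 5.74%.

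Genes that RAS-ERK signalling induces gave 4 falls and no rise among 26 tested, where 1.51% of all tested genes fell, with a median log2 change of -0.48. ETV5, an ETS transcription factor, had 8.25 and 6.21 CPM in the sh-SH2D1A libraries, against 22 and 21.9 CPM in the sh-NC libraries. It was lower in both sh-SH2D1A libraries, and its log2 change was -1.6 ± 0.22 (adjusted p = 0.00990). Its exons overlap those of DGKG on the same strand. SPRED2, an inhibitor of RAS-ERK signalling, had 16.6 and 15.6 CPM with sh-SH2D1A, against 36.2 and 36.8 CPM with sh-NC, a log2 change of -1.18 ± 0.16 (adjusted p = 0.0101). CD69, a surface protein that appears early in T cell activation, had 7.14 and 8.83 CPM with sh-SH2D1A, against 20.4 and 21.4 CPM with sh-NC, a log2 change of -1.39 ± 0.21 (adjusted p = 0.0152). In each of these genes the 2 arms lay far apart relative to the gap within an arm. SPRED1, a relative of SPRED2, had 22.7 and 24.2 CPM with sh-SH2D1A, against 42.2 and 44.8 CPM with sh-NC, and its log2 change of -0.89 ± 0.15 passed (adjusted p = 0.0207, 0.0605 without sh-NC replicate 1 and 0.135 without sh-NC replicate 2). JUN, an immediate early transcription factor, had 26.3 and 19.2 CPM with sh-SH2D1A, against 44.2 and 36.4 CPM with sh-NC and did not pass (adjusted p = 0.0721), and EGR1, another, had 11.7 and 11 CPM with sh-SH2D1A, against 17.5 and 14.3 CPM with sh-NC (adjusted p = 0.286). Falls in the list numbered 8 without sh-SH2D1A replicate 1 and 6 without sh-SH2D1A replicate 2, against 8.12% and 6.59% of all genes tested in those runs.

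Of 17 tested NF-kB subunits and targets, 2 fell and none rose, against 1.51% of all tested genes that fell, and the median log2 change was -0.48. TNFAIP3, which encodes the feedback inhibitor A20, had 48.3 and 47.5 CPM in the sh-SH2D1A libraries, against 92.1 and 96.6 CPM in the sh-NC libraries. NFKB1, which encodes the p105 precursor of the p50 subunit, had 21.4 and 18.1 CPM with sh-SH2D1A, against 45.8 and 46.5 CPM with sh-NC. Both genes were well below the controls in each sh-SH2D1A library, with log2 changes of -0.98 ± 0.12 (adjusted p = 0.00701) for TNFAIP3 and -1.22 ± 0.16 (adjusted p = 0.00782) for NFKB1. RELB, another subunit, had 2.57 and 1.72 CPM with sh-SH2D1A, against 5.52 and 4.83 CPM with sh-NC (adjusted p = 0.0879), and BIRC3, a target that inhibits cell death, had 32.9 and 38.6 CPM with sh-SH2D1A, against 53.4 and 53.9 CPM with sh-NC (adjusted p = 0.0832). Without sh-SH2D1A replicate 1 the list had 8 falls and without replicate 2 it had 5, against 8.12% and 6.59% of all genes tested.

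**Figure D3:**
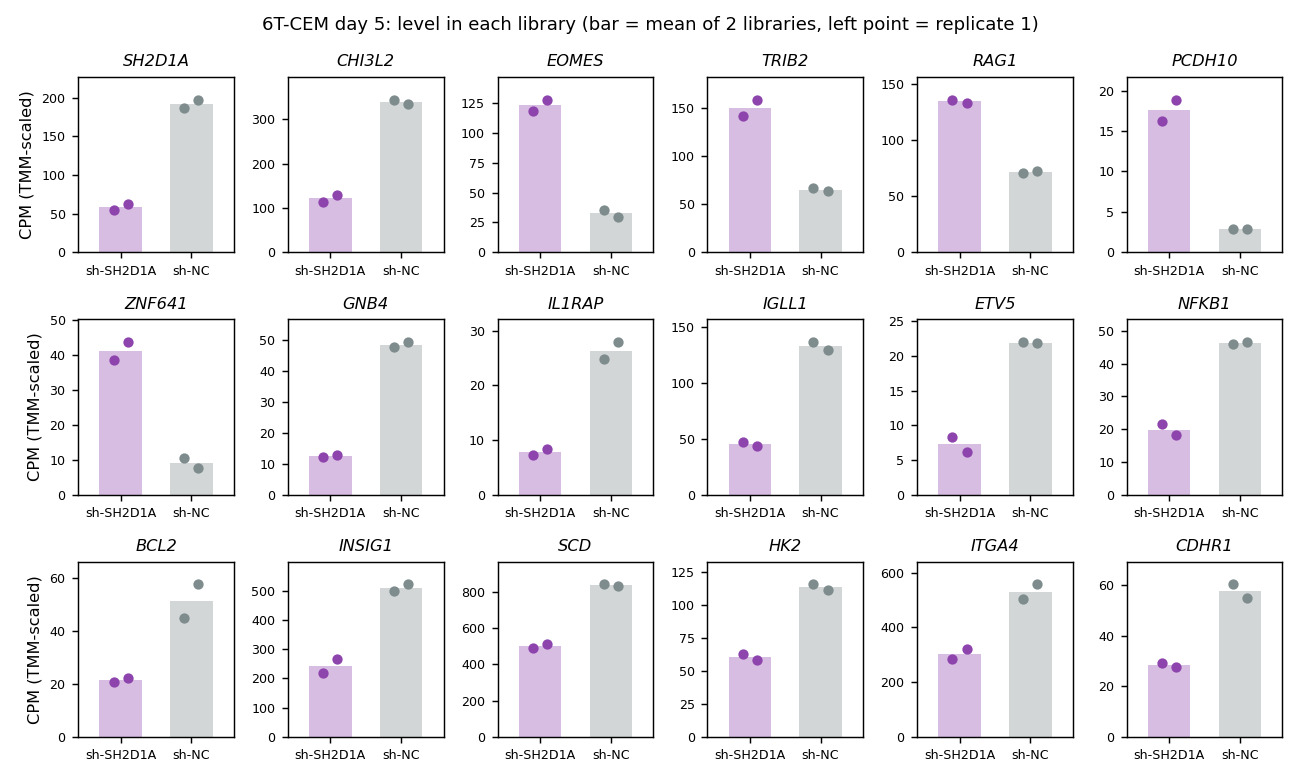
Level in TMM-scaled CPM (vertical axes, each from 0) of 18 genes in each day 5 library, sh-SH2D1A left and sh-NC right. Bars are means of 2 libraries and points are the libraries, with replicate 1 on the left. All 18 genes passed, and the points of the 2 arms do not overlap for any gene that passed, nor for 48.6% of all tested genes. EOMES, TRIB2, RAG1, PCDH10 and ZNF641 are the 5 that are higher with sh-SH2D1A.

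Genes of T cell identity moved in both directions. EOMES, a T-box transcription factor of effector and memory T cells, had 118 and 127 CPM in the sh-SH2D1A libraries, against 35.7 and 29.4 CPM in the sh-NC libraries. Both sh-SH2D1A libraries were above 3 times either control, and the log2 change was 1.92 ± 0.14 (adjusted p = 0.00191). GZMH, a protease of cytotoxic granules, was rare, with 1.74 and 2.1 CPM with sh-SH2D1A, against 0.135 and 0.364 CPM with sh-NC, and rose by a log2 change of 2.93 ± 0.60 (adjusted p = 0.0426), or 2.38 without sh-NC replicate 1 and 3.79 without sh-NC replicate 2. The other 14 of the 16 tested effector and cytotoxic genes did not pass, where 2.11% of all tested genes passed. The median of the list was 0.31. ID2, an inhibitor of E proteins, had 10.8 and 13.8 CPM with sh-SH2D1A, against 3.97 and 5.6 CPM with sh-NC, a log2 change of 1.36 ± 0.28 (adjusted p = 0.0408, 0.124 without sh-NC replicate 1). ID3, a close relative, had 74 and 61.4 CPM with sh-SH2D1A, against 35.5 and 39.6 CPM with sh-NC, a log2 change of 0.85 ± 0.15 (adjusted p = 0.0254, 0.169 without sh-NC replicate 1 and 0.0643 without sh-NC replicate 2). These were the 2 that passed among 32 transcription factors of T cells and T-ALL, a list with a median of -0.09. GATA3, a factor of early T cell development, had 93.9 and 99.5 CPM with sh-SH2D1A, against 139 and 139 CPM with sh-NC and did not pass (adjusted p = 0.0565). MAF, a transcription factor of helper T cells, had 3.81 and 3.03 CPM with sh-SH2D1A, against 0.707 and 0.727 CPM with sh-NC, and ZBTB16, which encodes the innate-like lymphocyte factor PLZF, had 3.31 and 2.62 CPM with sh-SH2D1A, against 9.996 and 9.34 CPM with sh-NC. Both passed, MAF with a log2 change of 2.25 ± 0.38 (adjusted p = 0.0207) and ZBTB16 with -1.7 ± 0.27 (adjusted p = 0.0172).

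Among 19 genes of antigen receptor recombination and early T cells, 1 rose and 3 fell, against 0.606% and 1.51% of all tested genes. RAG1, a subunit of the V(D)J recombinase, had 136 and 134 CPM in the sh-SH2D1A libraries, against 70.9 and 72.5 CPM in the sh-NC libraries. The arms were well apart, at a log2 change of 0.91 ± 0.12 (adjusted p = 0.00716, 0.0545 without sh-NC replicate 1). IGLL1, known as part of the surrogate light chain of precursor B cells, had 46.8 and 43.2 CPM with sh-SH2D1A, against 136 and 129 CPM with sh-NC, a log2 change of -1.56 ± 0.13 (adjusted p = 0.00191). LIG4, the ligase that joins broken DNA ends, had 62.8 and 75 CPM with sh-SH2D1A, against 127 and 133 CPM with sh-NC, a log2 change of -0.91 ± 0.13 (adjusted p = 0.0123, 0.052 without sh-NC replicate 2). CD1A, a lipid-presenting protein of cortical thymocytes, had 11.8 and 14.7 CPM with sh-SH2D1A, against 28.3 and 23.2 CPM with sh-NC, a log2 change of -0.96 ± 0.20 (adjusted p = 0.0497, 0.254 without sh-NC replicate 1). The 4 genes that passed thus did not share a direction, and the median of the list was 0.06. TRBV28, a variable segment of the T cell receptor beta chain, had 38.8 and 26.8 CPM with sh-SH2D1A, against 87.1 and 124 CPM with sh-NC, a log2 change of -1.69 ± 0.22 (adjusted p = 0.00716, 0.0841 with all 8 libraries of 6T-CEM in the fit). At day 10 TRBV28 had 17.2 and 79.2 CPM with sh-SH2D1A, against 25 and 24.9 CPM with sh-NC. Its log2 change there was 0.95 ± 0.53, of the opposite sign, and did not pass (adjusted p = 0.284 by edgeR). TRBC1, one of the pair of near-identical beta constant genes, had 45.4 and 46.9 CPM with sh-SH2D1A, against 43.6 and 2.98 CPM with sh-NC, with the 2 controls themselves far apart, and did not pass (adjusted p = 0.569). TRAC, the alpha constant gene, had 68.8 and 75.3 CPM with sh-SH2D1A, against 85 and 87.9 CPM with sh-NC (adjusted p = 0.323). Segments of this locus share sequence, and how reads were divided among them is not given in the sources used here.

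Of 18 NOTCH receptors and targets, 1 rose and 1 fell, against 0.606% and 1.51% of all tested genes. TRIB2, a pseudokinase gene known as a NOTCH1 target in T-ALL, had 142 and 159 CPM in the sh-SH2D1A libraries, against 66.6 and 63.5 CPM in the sh-NC libraries. Each sh-SH2D1A library was above 2 times each control, and the log2 change was 1.21 ± 0.12 (adjusted p = 0.00385). NOTCH2 had 102 and 107 CPM with sh-SH2D1A, against 157 and 149 CPM with sh-NC, a log2 change of -0.55 ± 0.12 (adjusted p = 0.0468, 0.48 without sh-NC replicate 1 and 0.393 without sh-NC replicate 2). The list's median was -0.21.

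Of 35 tested genes of cholesterol and fatty acid synthesis 9 fell and none rose, against 1.51% of all tested genes that fell. The median log2 change of the list was -0.38. INSIG1, which holds the sterol-sensing complex in the endoplasmic reticulum, had 219 and 265 CPM in the sh-SH2D1A libraries, against 499 and 521 CPM in the sh-NC libraries. FADS2, a desaturase of polyunsaturated fatty acids, had 187 and 172 CPM with sh-SH2D1A, against 352 and 323 CPM with sh-NC, and its exons overlap those of its neighbours FEN1 and FADS1. Both sh-SH2D1A libraries were below both controls for each, with log2 changes of -1.07 ± 0.12 (adjusted p = 0.00492) for INSIG1 and -0.91 ± 0.12 (adjusted p = 0.00716) for FADS2. SCD, the main desaturase of saturated fatty acids, had 490.0 and 514 CPM with sh-SH2D1A, against 840.4 and 833 CPM with sh-NC, a log2 change of -0.74 ± 0.10 (adjusted p = 0.0106). SREBF1, a transcription factor of lipid synthesis genes, had 223 and 181 CPM with sh-SH2D1A, against 340.4 and 307 CPM with sh-NC, a log2 change of -0.68 ± 0.13 (adjusted p = 0.0357). None of these genes had libraries of the 2 arms that crossed. HMGCS1, SC5D and FDFT1, enzymes of sterol synthesis, had log2 changes of -0.61 ± 0.12, -0.70 ± 0.14 and -0.60 ± 0.11 (adjusted p = 0.0351, 0.0365 and 0.0307). FASN, the fatty acid synthase, had 179.6 and 133 CPM with sh-SH2D1A, against 279 and 253 CPM with sh-NC, a log2 change of -0.77 ± 0.15 (adjusted p = 0.0385). INSIG1 and FADS2 also passed without either control library. The adjusted p of SCD, SREBF1, HMGCS1, SC5D, FDFT1 and FASN lay between 0.0852 and 0.273 without sh-NC replicate 1 and between 0.0572 and 0.442 without sh-NC replicate 2. Falls in the list numbered 19 without sh-SH2D1A replicate 1 and 17 without sh-SH2D1A replicate 2, and 20 with the GC offset, against 8.12%, 6.59% and 7.67% of all genes tested.

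The promoters of these genes were read from RefSeq (GRCh38.p14), as the 250 bases before to the 50 bases after each annotated start. The CCAAT box (CCAAT, either strand), which the factor NF-Y binds beside sterol elements, was in at least 1 window of 21 of 28 list members with a sequence (75%), against 39.7% of all 27305 genes with one. It was in 5 of the 6 members that fell and have a sequence. The sterol element TCACNCCAC was in 1 of the 28 and in 1.39% of all. The stretches around the box are shown for 4 of the 5 genes that fell and hold a CCAAT box, because they place the shared letters in each promoter. The other is not shown. Capitals mark CCAAT or, where the box lies on the other strand, its reverse complement ATTGG. They lie at chr7:155297678-155297742, plus strand for INSIG1, chr10:100347017-100347081, plus strand for SCD, chr5:43313478-43313542, minus strand for HMGCS1 and chr11:121292685-121292749, plus strand for SC5D, each written 5′ to 3′ on the strand of the gene. The first base in capitals is 170 bases before the annotated start of INSIG1, 186 before that of SCD and 100 before that of HMGCS1. In SC5D, which has more than 1 annotated start here, it is 56 or 137 bases before. SCD and HMGCS1 each have 2 matches before the start, of which the nearest to it is in capitals. A match is a string of letters and not evidence of binding.
INSIG1: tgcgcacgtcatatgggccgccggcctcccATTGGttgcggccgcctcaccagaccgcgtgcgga
SCD: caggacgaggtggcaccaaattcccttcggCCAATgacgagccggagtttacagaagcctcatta
HMGCS1: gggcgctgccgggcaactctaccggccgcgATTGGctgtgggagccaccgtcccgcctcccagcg
SC5D: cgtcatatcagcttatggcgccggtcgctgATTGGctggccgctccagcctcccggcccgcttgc

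Glycolysis and hypoxia response genes moved in the same direction: 5 of 37 fell and none rose, against 1.51% of all tested genes that fell. The median log2 change was -0.48. In 31 of the 37 both sh-SH2D1A libraries were below both controls, which held for 24.4% of all tested genes. HK2, which traps glucose in the cell, had 63 and 58.5 CPM in the sh-SH2D1A libraries, against 116 and 111 CPM in the sh-NC libraries. The arms were apart, and the log2 change was -0.90 ± 0.12 (adjusted p = 0.00958). SLC2A3, the glucose transporter GLUT3, had 9.78 and 8.72 CPM with sh-SH2D1A, against 23.4 and 19.4 CPM with sh-NC, a log2 change of -1.21 ± 0.21 (adjusted p = 0.0227). PDK1, a kinase that keeps pyruvate out of the mitochondrial oxidation route, had 65.8 and 70.7 CPM with sh-SH2D1A, against 113 and 121 CPM with sh-NC, a log2 change of -0.78 ± 0.12 (adjusted p = 0.0172). ALDOC and ENO1 encode glycolytic enzymes. ALDOC had 58.9 and 48.9 CPM with sh-SH2D1A, against 91.8 and 91.9 CPM with sh-NC, a log2 change of -0.77 ± 0.14 (adjusted p = 0.0256), and ENO1 had 1751 and 1564 CPM with sh-SH2D1A, against 2552 and 2411 CPM with sh-NC, a log2 change of -0.58 ± 0.10 (adjusted p = 0.0261). HK2 also passed without either control library. The adjusted p of the other 4 lay between 0.0643 and 0.241 without sh-NC replicate 1 and between 0.00852 and 0.191 without sh-NC replicate 2. Falls in the list numbered 24 without sh-SH2D1A replicate 1 and 21 without sh-SH2D1A replicate 2, and 30 with the GC offset, against the same shares of all genes as for the sterol list. SLC2A1, the transporter GLUT1, had 61.7 and 57.6 CPM with sh-SH2D1A, against 93.8 and 84.1 CPM with sh-NC and did not pass (adjusted p = 0.0586), and VEGFA, a hypoxia-induced growth factor, had 14.8 and 15.4 CPM with sh-SH2D1A, against 25.1 and 23.1 CPM with sh-NC (adjusted p = 0.097).

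The core of the hypoxia response element, ACGTG (either strand), was in at least 1 promoter window of 21 of the 33 list members with a sequence (63.6%), against 24.9% of all genes. It was in 3 of the 4 that fell and have a sequence, and these are shown with the match nearest to the start in capitals (ACGTG, or CACGT for the other strand). Another CACGT in the stretch of PDK1 is left in lower case. The stretches lie at chr2:74834049-74834113, plus strand for HK2, chr17:28576896-28576953, minus strand for ALDOC and chr2:172556052-172556089, plus strand for PDK1, and end before the annotated start. The first base in capitals is 48, 28 and 8 bases before that start, in this order. HK2 has another annotated start here, whose window is not shown and whose nearest match begins 148 bases before it. The same 5 letters are part of other factors' sites, so a match does not name a factor.
HK2: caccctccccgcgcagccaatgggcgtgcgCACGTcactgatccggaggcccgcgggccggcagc
ALDOC: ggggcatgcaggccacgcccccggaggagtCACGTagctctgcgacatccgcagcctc
PDK1: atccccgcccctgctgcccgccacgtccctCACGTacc

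**Figure D4:**
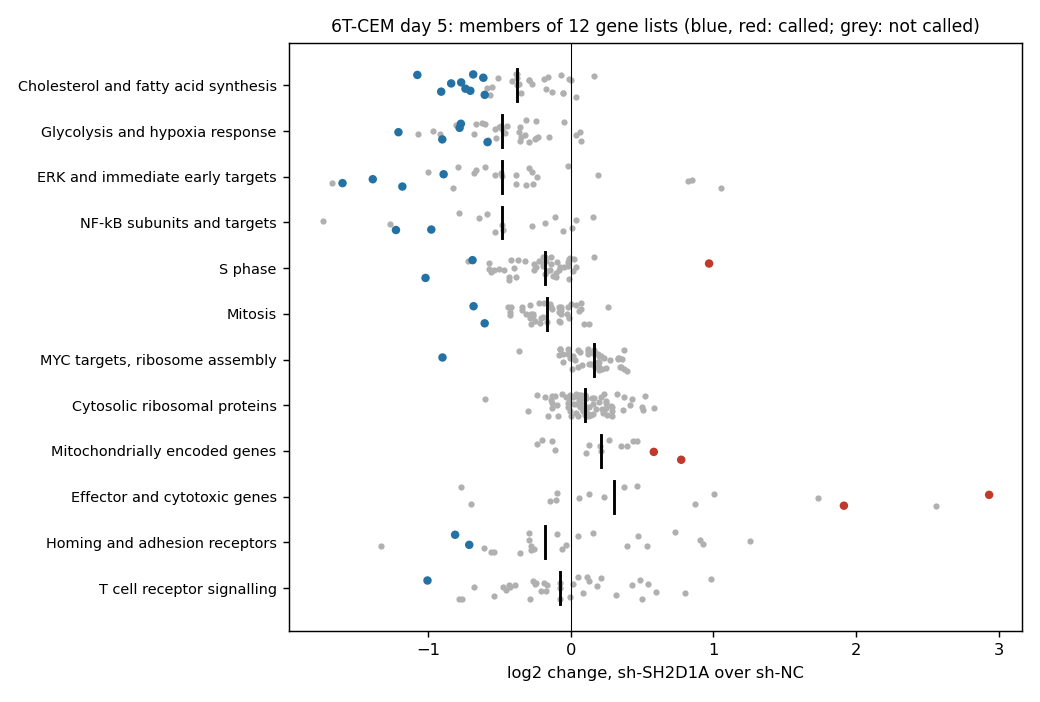
Log2 change of sh-SH2D1A over sh-NC (horizontal axis) of the tested members of 12 gene lists, 1 point per gene and a black line at the median. Genes that passed are blue (lower) or red (higher) and the others grey. The medians of the first 4 lists lie between -0.48 and -0.38, with 20 blue points and no red, and those of the MYC, ribosomal protein and mitochondrially encoded lists lie between 0.10 and 0.22.

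Of 47 S phase genes 1 rose and 2 fell, and of 43 mitosis genes none rose and 2 fell, against 0.606% and 1.51% of all tested genes. Both sh-SH2D1A libraries were below both controls in 30 of the S phase and 21 of the mitosis genes, which held for 24.4% of all. CCNE2, a cyclin of S phase entry, had 52.3 and 41.3 CPM in the sh-SH2D1A libraries, against 91.9 and 97.7 CPM in the sh-NC libraries. GINS1 and GINS3, subunits of the same part of the replicative helicase, moved in opposite directions: GINS1 had 77 and 87.1 CPM with sh-SH2D1A, against 132 and 132 CPM with sh-NC and GINS3 had 41.1 and 39.1 CPM with sh-SH2D1A, against 21.8 and 19.1 CPM with sh-NC. All 3 had arms that did not overlap. The log2 changes were -1.02 ± 0.15 (adjusted p = 0.0125) for CCNE2, -0.69 ± 0.12 for GINS1 (adjusted p = 0.0261, 0.186 without sh-NC replicate 1 and 0.233 without sh-NC replicate 2) and 0.97 ± 0.16 for GINS3 (adjusted p = 0.0196, 0.134 without sh-NC replicate 2). The 2 mitosis genes that fell, ECT2 and PRC1, both act in cytokinesis. ECT2 had 151 and 169 CPM with sh-SH2D1A, against 247 and 267 CPM with sh-NC, a log2 change of -0.68 ± 0.12 (adjusted p = 0.0245), and PRC1 had 118 and 124 CPM with sh-SH2D1A, against 185 and 182 CPM with sh-NC, a log2 change of -0.60 ± 0.11 (adjusted p = 0.0307). Their adjusted p lay between 0.116 and 0.314 without sh-NC replicate 1 and between 0.313 and 0.335 without sh-NC replicate 2. MKI67, a proliferation marker, had 965 and 1020.4 CPM with sh-SH2D1A, against 1304 and 1358 CPM with sh-NC and did not pass (adjusted p = 0.0731). The medians were -0.18 for S phase and -0.16 for mitosis. Falls among S phase genes numbered 19 without sh-SH2D1A replicate 1 and 12 without sh-SH2D1A replicate 2, and among mitosis genes 8 without sh-SH2D1A replicate 1 and 13 without sh-SH2D1A replicate 2, where 8.12% and 6.59% of all genes tested fell. None of 15 tested replication-dependent histone genes passed by edgeR or DESeq2, and none had an unadjusted p under 0.05 by edgeR.

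Of 17 tested BCL2 family genes, BCL2 alone passed, where 2.11% of all tested genes passed. This inhibitor of apoptosis had 20.9 and 22.5 CPM in the sh-SH2D1A libraries, against 45 and 57.7 CPM in the sh-NC libraries. The arms were apart although the controls themselves differed, and the log2 change was -1.25 ± 0.17 (adjusted p = 0.00976). MCL1, a second inhibitor of apoptosis, had 132 and 151 CPM with sh-SH2D1A, against 201 and 214 CPM with sh-NC and did not pass (adjusted p = 0.0565). Of 27 p53 targets 1 fell: DDB2, which recognises ultraviolet damage in DNA, had 53.4 and 47.5 CPM with sh-SH2D1A, against 99.4 and 96.7 CPM with sh-NC, a log2 change of -0.96 ± 0.13 (adjusted p = 0.00895). The medians were -0.19 for the BCL2 family and -0.16 for p53 targets.

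The lists of ribosomal protein and MYC target genes had medians above 0. None of 80 cytosolic ribosomal protein genes passed by edgeR. At an unadjusted p under 0.05, 9 were higher and 1 lower, against 1486 higher and 1803 lower of all 19482 tested genes. By the DESeq2 Wald test, which called 5.74% of all tested genes, 5 of the 80 were higher and none lower. The median of the 80 was 0.10 by edgeR. Of 48 MYC targets in ribosome assembly and nucleotide supply 1 fell and none rose, against 1.51% of all tested genes that fell. The median was 0.16. The one was SRM, which makes spermidine, with 37 and 32.3 CPM with sh-SH2D1A, against 62.9 and 66.9 CPM with sh-NC, a log2 change of -0.90 ± 0.14 (adjusted p = 0.0172, 0.0868 without sh-NC replicate 2). Of 33 genes of the ATF4 amino acid response 1 fell. SLC38A2, an amino acid transporter, had 328 and 413 CPM with sh-SH2D1A, against 559 and 609 CPM with sh-NC, a log2 change of -0.66 ± 0.13 (adjusted p = 0.0414, 0.109 without sh-NC replicate 1 and 0.316 without sh-NC replicate 2). The median of this list was 0.01.

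Of the 15 genes of the mitochondrial genome 2 rose and none fell, where 0.606% of all tested genes rose and 1.51% fell. MT-ATP8, an ATP synthase subunit, had 643 and 896 CPM in the sh-SH2D1A libraries, against 458 and 442 CPM in the sh-NC libraries, and MT-ND3, a complex I subunit, had 283 and 327 CPM with sh-SH2D1A, against 211 and 196 CPM with sh-NC. For both, replicate 2, whose mitochondrial share was 9.19%, was the higher of the sh-SH2D1A libraries. The log2 changes were 0.78 ± 0.15 (adjusted p = 0.0365, 0.0655 without sh-NC replicate 1 and 0.109 without sh-NC replicate 2) and 0.58 ± 0.12 (adjusted p = 0.0447, 0.273 and 0.47 in the same runs). Exons of MT-ATP8 overlap those of MT-ATP6. MT-CO1, the most counted of them, had 18376 and 22086 CPM with sh-SH2D1A, against 18538 and 19027 CPM with sh-NC and did not pass (adjusted p = 0.641). The list's median was 0.22, 0.37 without sh-SH2D1A replicate 1, where 10 rose, and 0.12 without replicate 2, where 4 rose and 2 fell. Of all genes tested 5.67% and 3.65% rose in those runs. Of 51 nuclear genes of the respiratory chain 3 fell and none rose, against 1.51% of all tested genes that fell, with a median of 0.08. SDHD, of complex II, had 42.8 and 46.2 CPM with sh-SH2D1A, against 82.5 and 88.6 CPM with sh-NC, a log2 change of -0.94 ± 0.13 (adjusted p = 0.00990, 0.0559 without sh-NC replicate 2). ATP5F1A, of ATP synthase, had 249 and 297 CPM with sh-SH2D1A, against 454 and 466 CPM with sh-NC, a log2 change of -0.75 ± 0.12 (adjusted p = 0.0179, 0.0746 without sh-NC replicate 1 and 0.126 without sh-NC replicate 2). NDUFA1, of complex I, had 4.31 and 4.04 CPM with sh-SH2D1A, against 9.69 and 10.6 CPM with sh-NC, a log2 change of -1.28 ± 0.25 (adjusted p = 0.0347, 0.0876 without sh-NC replicate 2).

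Unfolded protein and heat shock genes did not share a direction. HSPA8, the constitutive HSP70 of the cytosol, had 846 and 947 CPM in the sh-SH2D1A libraries, against 580.0 and 606 CPM in the sh-NC libraries. EDEM1, which sends misfolded proteins out of the endoplasmic reticulum for degradation, had 232 and 263 CPM with sh-SH2D1A, against 418 and 422 CPM with sh-NC. These were the 2 of 32 unfolded protein and heat shock genes that passed, where 2.11% of all tested genes passed. HSPA8 was higher by a log2 change of 0.60 ± 0.11 (adjusted p = 0.0294) and EDEM1 lower at -0.76 ± 0.11 (adjusted p = 0.0138). Without sh-NC replicate 1 their adjusted p were 0.325 and 0.0764, and without replicate 2 they were 0.245 and 0.106. HSP90AB1, a cytosolic HSP90, had 1218 and 1369.6 CPM with sh-SH2D1A, against 921 and 916 CPM with sh-NC (adjusted p = 0.0507). XBP1, which induces folding genes when unfolded proteins build up, had 4.94 and 1.98 CPM with sh-SH2D1A, against 10.6 and 14.5 CPM with sh-NC (adjusted p = 0.0507). The list's median was -0.02. DICER1, which cuts microRNA precursors and short hairpins, had 164 and 196 CPM with sh-SH2D1A, against 308 and 334 CPM with sh-NC, a log2 change of -0.83 ± 0.13 (adjusted p = 0.0147, 0.103 without sh-NC replicate 2), and it was the 1 gene of 16 in the small RNA machinery that passed.

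Receptors and adhesion molecules were next. Of 24 homing and adhesion genes 2 fell and none rose, against 1.51% of all tested genes that fell, and the median was -0.18. ITGA4, the alpha-4 integrin of lymphocyte homing, had 284 and 320.0 CPM in the sh-SH2D1A libraries, against 502 and 557 CPM in the sh-NC libraries. Both sh-SH2D1A libraries were the lower ones, and the log2 change was -0.81 ± 0.12 (adjusted p = 0.0125, 0.121 without sh-NC replicate 2). STAT5B, which carries signals of interleukin receptors, had 106 and 111 CPM with sh-SH2D1A, against 167 and 166 CPM with sh-NC, a log2 change of -0.62 ± 0.11 (adjusted p = 0.0285, 0.286 without sh-NC replicate 1 and 0.317 without sh-NC replicate 2), and was the 1 of 25 cytokine receptor and STAT5 genes that passed. IL7R, the interleukin-7 receptor chain, had 9.38 and 10.7 CPM with sh-SH2D1A, against 4.98 and 4.69 CPM with sh-NC and did not pass (adjusted p = 0.0683). The median over these 25 was 0.05. MFAP4, an extracellular matrix protein, had 26 and 18.3 CPM with sh-SH2D1A, against 7.37 and 6.33 CPM with sh-NC, a log2 change of 1.69 ± 0.24 (adjusted p = 0.0113), and was the 1 of 19 matrix genes that passed. Of all tested genes 2.11% passed. No gene passed by edgeR among 16 tested HLA class I and peptide loading genes or among 38 interferon response genes. At an unadjusted p under 0.05, 2 of the HLA list were higher and 2 lower, and 7 of the interferon list were higher and 4 lower. Of all 19482 tested genes 1486 were higher and 1803 lower at that unadjusted p. DESeq2 gave 1 higher and 2 lower in each list, and called 5.74% of all tested genes. The medians were -0.20 for the HLA list and 0.11 for the interferon list.

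Named by size alone, the 15 largest rises with a mean of at least 1 CPM were mostly genes of low level. CCR1, CFTR and GZMH had 0.168, 0.101 and 0.135 CPM in sh-NC replicate 1, where 3 counts, a level that cannot be told from 0, are 0.101 CPM. The sizes of their rises are therefore uncertain. CCR1, a chemokine receptor, had 2.7 and 1.42 CPM in the sh-SH2D1A libraries, against 0.168 and 0.182 CPM in the sh-NC libraries. PCDH10, a protocadherin, had 16.3 and 18.8 CPM with sh-SH2D1A, against 2.89 and 2.91 CPM with sh-NC, and SCG2, a secretory granule protein, had 19 and 15.8 CPM with sh-SH2D1A, against 4.17 and 2.87 CPM with sh-NC. All 3 were several-fold higher in both sh-SH2D1A libraries, with log2 changes of 3.53 ± 0.60 (adjusted p = 0.0212) for CCR1, 2.6 ± 0.24 (adjusted p = 0.00221) for PCDH10 and 2.3 ± 0.27 (adjusted p = 0.00492) for SCG2. ZNF641, a zinc finger gene, had 38.7 and 43.7 CPM with sh-SH2D1A, against 10.4 and 7.49 CPM with sh-NC, a log2 change of 2.2 ± 0.21 (adjusted p = 0.00242). At day 10 ZNF641 had 40.3 and 38.8 CPM with sh-SH2D1A, against 39.1 and 11.5 CPM with sh-NC, and did not pass (adjusted p = 0.349 by edgeR). The day 10 controls were thus far apart, with replicate 1 at the level of the sh-SH2D1A libraries. TC2N, whose exons overlap CATSPERB on the same strand, had 8.31 and 9.62 CPM with sh-SH2D1A, against 1.25 and 1.89 CPM with sh-NC, a log2 change of 2.52 ± 0.32 (adjusted p = 0.00663). SPATA3-AS1 had a log2 change of 2.62 ± 0.45 (adjusted p = 0.0229). CFTR, a chloride channel, had 1.44 and 2.92 CPM with sh-SH2D1A, against 0.101 and 0.364 CPM with sh-NC, and its log2 change of 3.22 ± 0.68 (adjusted p = 0.0474) had an adjusted p of 0.0595 without sh-SH2D1A replicate 2. The value was 2.62 in that run, 2.56 without sh-NC replicate 1 and 4.37 without sh-NC replicate 2. SCUBE1 and MXRA8 had log2 changes of 2.43 ± 0.52 and 2.36 ± 0.50 (adjusted p = 0.0499 and 0.0487), with 0.0889 for SCUBE1 without sh-NC replicate 1 and 0.0703 for MXRA8 without sh-SH2D1A replicate 1. GJD3-AS1, FBXL19-AS1 and USP3-AS1, at 2.02 ± 0.33, 2.0 ± 0.24 and 2.26 ± 0.37, overlap exons of GJD3, FBXL19 and USP3 on the other strand. USP3-AS1 had an adjusted p of 0.124 with all 8 libraries in the fit. The strand setting of the counting is not given in the sources used here, so reads of these antisense genes and their partners cannot be told apart. EOMES, GZMH and MAF, given above, complete the 15.

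Among the 15 largest falls, GNB4, a beta subunit of heterotrimeric G proteins, had 12.2 and 12.8 CPM in the sh-SH2D1A libraries, against 47.6 and 49.3 CPM in the sh-NC libraries. IL1RAP, the shared co-receptor of the interleukin-1 family, had 7.21 and 8.27 CPM with sh-SH2D1A, against 24.8 and 27.9 CPM with sh-NC, and CDK2AP1, a partner of the kinase CDK2, had 26.3 and 36.2 CPM with sh-SH2D1A, against 102 and 102 CPM with sh-NC. The arms were far apart for all 3, with log2 changes of -1.95 ± 0.16 (adjusted p = 0.00191) for GNB4, -1.77 ± 0.20 (adjusted p = 0.00488) for IL1RAP and -1.71 ± 0.17 (adjusted p = 0.00271) for CDK2AP1. SERPINH1P1, a pseudogene whose reads may belong in part to SERPINH1, had 0.501 and 0.861 CPM with sh-SH2D1A, against 4.04 and 3.34 CPM with sh-NC, a log2 change of -2.44 ± 0.41 (adjusted p = 0.0205). CCDC69 and LIPT1 had log2 changes of -1.65 ± 0.31 and -1.63 ± 0.30 (adjusted p = 0.0307 and 0.0307). ATP4A, TEX14, MAPK8IP2 and ADAT3 had log2 changes of -1.72 ± 0.34, -1.66 ± 0.35, -1.65 ± 0.34 and -1.6 ± 0.33, each from under 10 CPM, and each missed the threshold without 1 control library. Their adjusted p there were 0.0821 for ATP4A without sh-NC replicate 2, and 0.082 for TEX14, 0.0911 for MAPK8IP2 and 0.139 for ADAT3 without sh-NC replicate 1. With all 8 libraries of 6T-CEM ATP4A had an adjusted p of 0.0746. ADAT3 shares exons with SCAMP4. ATP5MF-PTCD1, a read-through transcript of 2 neighbouring genes, had 0 and 0 counts with sh-SH2D1A, against 15 and 111 with sh-NC, at least 20.9-fold lower when 3 counts per library stand in for 0 (adjusted p = 0.0406, 0.316 without sh-NC replicate 2). Its exons are those of ATP5MF and PTCD1, so its counts depend on how reads were divided. SH2D1A, ZBTB16, TRBV28 and ETV5, given above, complete the 15.

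Libraries with the same hairpin labels were made from 6T-CEM at day 10, with control libraries of that day. There 1296 genes were higher and 1456 lower, 6.61% and 7.42% of 19610 tested (14% together). The biological coefficient of variation was 0.19 in the day 5 fit and 0.0886 in the day 10 fit. Of the 118 genes higher at day 5, 71 were also higher at day 10, which is 60.2% of the day 5 genes and 5.48% of the day 10 genes. Of the 294 lower, 242 were also lower at day 10, which is 82.3% and 16.6%. Genes lower at day 10 also leaned the same way at day 5: 1284 of the 1448 that were tested there had a negative log2 change, as had 9761 of all 19482 tested. Their median was -0.34 at day 5 and -0.36 at day 10. Of the genes higher at day 10, 975 of the 1282 tested at day 5 had a positive log2 change there, as had 9721 of all 19482, with a median of 0.21 at day 5 and 0.31 at day 10.

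SH2D1A itself had 83.9 and 77.3 CPM with sh-SH2D1A, against 162 and 159.7 CPM with sh-NC at day 10, a log2 change of -1.0 ± 0.05, beside -1.71 ± 0.12 at day 5, and CHI3L2 had one of -0.93 ± 0.03 at day 10, beside -1.47 ± 0.12 at day 5. Both fell on both days, and the difference between days did not pass for either (adjusted p = 0.108 and 0.126 by edgeR). EOMES at day 10 had 293 and 292 CPM with sh-SH2D1A, against 63.1 and 66 CPM with sh-NC, a log2 change of 2.18 ± 0.04, beside 1.92 ± 0.14 at day 5. PCDH10 at day 10 had 14.2 and 18.4 CPM with sh-SH2D1A, against 10.6 and 12.6 CPM with sh-NC, a log2 change of 0.49 ± 0.16 that did not pass, beside 2.6 ± 0.24 at day 5. FASN at day 10 had a log2 change of -0.09 ± 0.04, beside -0.77 ± 0.15 at day 5. The difference between days was tested as an interaction over the 8 libraries of 6T-CEM, and 1 of 20978 genes passed (0.00477%), with 2157 at an unadjusted p under 0.05. The DESeq2 Wald test gave 218 (1.04%), and edgeR with the GC offset gave 465 (2.22%). Without day 5 sh-SH2D1A replicate 1 edgeR gave 545 more positive and 931 more negative at day 5, and without replicate 2 it gave 57 and 131. Without day 5 sh-NC replicate 1 the counts were 10 and 2, and without replicate 2 they were 4 and 1.

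The gene that passed was CDHR1 (chromosome 10, 84194635 to 84219621), a cadherin-related gene of photoreceptors. At day 5 it had 29.1 and 27.5 CPM in the sh-SH2D1A libraries, against 60.2 and 55 CPM in the sh-NC libraries. At day 10 it had 34 and 34.3 CPM with sh-SH2D1A, against 13.2 and 12.9 CPM with sh-NC. The sh-SH2D1A libraries were thus the lower ones at day 5 and the higher ones at day 10. The log2 change was -1.03 ± 0.14 at day 5 (adjusted p = 0.0104) and 1.39 ± 0.09 at day 10 (adjusted p = 4.58e-05), a difference of -2.43 ± 0.15 (adjusted p = 0.000680 by edgeR). The controls differed more between days than the sh-SH2D1A libraries did. MT-ND3 was the other gene that passed with opposite signs, at 0.58 ± 0.12 at day 5 and -0.13 ± 0.03 at day 10, and its difference had an adjusted p of 0.108.

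**Figure D5:**
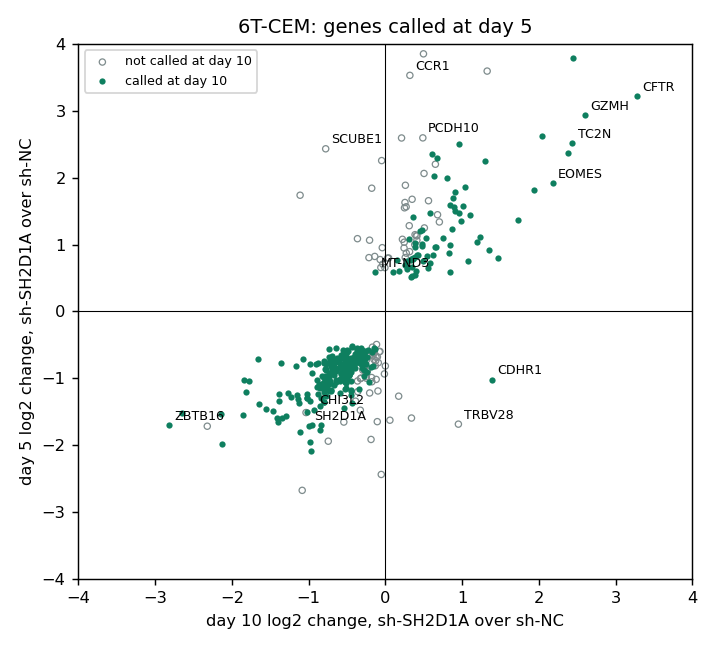
Log2 change of sh-SH2D1A over sh-NC at day 5 (vertical axis) against that at day 10 (horizontal axis) for 407 genes that passed at day 5, filled where they also passed at day 10; 2 more lie outside the axes. The days have control libraries of their own. CDHR1 is the filled point at lower right, at -1.03 and 1.39.

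The genes that differed most between the 2 sh-SH2D1A libraries, at a mean of at least 10 CPM, are given by value, since 2 libraries allow no test. FBXL20, a substrate adaptor of a ubiquitin ligase, had 54.1 CPM in replicate 1 and 15.4 CPM in replicate 2 of sh-SH2D1A, against 89.4 and 93.1 CPM with sh-NC. TRIM34 had 0.334 CPM in replicate 1 and 13.3 CPM in replicate 2 of sh-SH2D1A, against 14.8 and 13.9 CPM with sh-NC, and ZNF526 had 0.868 CPM in replicate 1 and 13.6 CPM in replicate 2 of sh-SH2D1A, against 17.5 and 16 CPM with sh-NC. In these 3 genes 1 sh-SH2D1A library stood far from the other while the controls were close to each other. RAB4B-EGLN2, a read-through transcript, had 34 CPM in replicate 1 and 5.8 CPM in replicate 2 of sh-SH2D1A, against 0 and 22.5 CPM with sh-NC, and SARNP had 4.41 CPM in replicate 1 and 24 CPM in replicate 2 of sh-SH2D1A, against 35.5 and 7.31 CPM with sh-NC. Here the controls were as far apart as the sh-SH2D1A libraries. The other 5 named in this way were FAM219B, PVRIG and GP1BB, lower in replicate 2, and BBS1 and RUSC1-AS1, higher in replicate 2. None of the 10 passed the test between the arms with all 4 libraries. FBXL20 missed it (adjusted p = 0.139 by edgeR) and was lower without each library in turn. RAB4B-EGLN2, FAM219B, PVRIG and GP1BB were lower without sh-SH2D1A replicate 1 and higher without sh-SH2D1A replicate 2, and SARNP the reverse. TRIM34, ZNF526, BBS1 and RUSC1-AS1 were lower in both of these runs. TRIM34 shares exons with the read-through gene TRIM6-TRIM34, GP1BB with SEPT5, PVRIG with STAG3, and BBS1 and SARNP with unnamed transcripts of the same strand.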

How the data were processed

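Messenger RNA was sequenced from total RNA (TRIzol extraction and TruSeq libraries, per the labels' protocols). HISAT2 2.2.0, StringTie and the build hg38 appear in the submitters' processing notes. The deposited values are counts per Ensembl gene, whole numbers that are not normalised, in a table for each line and day. How they were counted, with which annotation release, strand setting and filters, is not given in the sources used here. Totals of 27217899 to 33788024 per library set the floor: 3 counts, the limit when none is seen, are 0.0888 to 0.11 CPM. This floor is for counting error alone. Of 64252 identifiers 40995 have a symbol and 56591 are in GENCODE 29, which gave positions and overlaps.

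Groups follow the labels (line, day, shRNA), and no library was left out. edgeR 4.0.16 in R 4.3.3 was used on the counts. Genes under 10 counts were filtered with filterByExpr, libraries were scaled by TMM, and arms were compared by the quasi-likelihood F-test (two-sided). P-values were adjusted by Benjamini-Hochberg over all tested genes, with a threshold of 0.05. The standard error is the absolute log2 change over the square root of F. The difference between days is the interaction in one fit of the 8 libraries of 6T-CEM. CPM are TMM-scaled. The fits were tested on simulated data, in which they missed a part of the 2-fold changes and the share of false calls was above the threshold of 0.05.

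The rule for named genes took SH2D1A, CHI3L2, the 15 largest rises and falls with a symbol, a mean of at least 1 CPM and arms that do not overlap, the same for the difference between days, and 10 genes that differed between the sh-SH2D1A libraries. It also allowed members of the 33 gene lists (933 genes, 931 in the tables), which are described by counts and medians. The comparison, the lists and this rule were chosen with earlier results of these data known. Replicate numbers were not used as pairs: the deviations of equal numbers from their arm means correlated at 0.0235 over 19482 genes. Alternatives were DESeq2 1.42.0 size factors and Wald test, other filters and thresholds, a replicate block, all 8 libraries, mitochondrial genes taken out and each library left out, whose arm then has a lone library assumed to vary like the others. An offset by GC content (a spline with 5 degrees of freedom per library) was added after seeing the data. Some genes of the lists are counted but not reported by name here.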

Additional observations from a re-analysis of the deposited data

Results flagged for a closer look

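CDHR1 stood out because its effect differed between the days of 6T-CEM by a test of the difference itself. Its log2 change was -1.03 ± 0.14 at day 5, with both sh-SH2D1A libraries below both controls, and 1.39 ± 0.09 at day 10, with both above. The difference, day 5 minus day 10, was -2.43 ± 0.15 on the log2 scale (adjusted p = 0.000680 by edgeR over 20978 genes). With 2 libraries per group, a search for single libraries far from their group was not possible.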

How the results depend on the processing

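With the DESeq2 Wald test 386 genes were higher and 732 lower at day 5, with the replicate number as a block 843 and 1345, and with all 8 libraries of 6T-CEM in the fit 741 and 1094. With the GC offset, chosen after seeing the data, the counts were 1012 and 1495, and with the offset and the replicate block together 1278 and 1806. An adjusted p under 0.01 left 18 and 63, and a 2-fold minimum 70 and 108. Leaving out 1 library gave 136 to 1178 higher and 162 to 1687 lower. The labels do not say whether equal replicate numbers belong together. Their deviations correlated at 0.0235 over all tested genes and 0.201 over those with a mean of at least 10 CPM. The ratio of replicate 2 over replicate 1 fell with GC content in both arms, as given above. All 412 genes passed in the same direction under the block. At day 10 the counts were 444 and 655 with no filter on low counts, 141 and 323 with all 8 libraries, 516 and 741 at an adjusted p under 0.01, and 135 and 168 with the 2-fold minimum. The difference between days gave 84 positive and 134 negative with the DESeq2 Wald test, 151 and 314 with the GC offset, and 0 to 545 and 1 to 931 when 1 library was left out. The cause of these shifts was not tested, apart from the thresholds, which are stricter by construction. DESeq2 size factors, a stricter filter (10 counts in each library of an arm) and taking out mitochondrial genes moved no count by more than 1.5 times.

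Of 86 genes named with a log2 change, 41 passed in the same direction in every run that gave a value and none changed sign. Without sh-NC replicate 1, 33 fell short of the threshold, without sh-NC replicate 2, 33, and with no filter on low counts 15. The genes short of it with no filter were ADAT3, ATP4A, CD1A, CD4, CFTR, ID2, MAPK8IP2, MT-ND3, MXRA8, NDUFA1, NOTCH2, SCUBE1, SLC38A2, TEX14 and VIM. CD1A also fell short with mitochondrial genes taken out, and ATP4A, TRBV28 and USP3-AS1 with all 8 libraries. The biological coefficient of variation was 0.19 at day 5, and a level under 0.0888 to 0.11 CPM, which is 3 counts, cannot be told from 0.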

Other observations

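Several genes that passed belong to none of the 33 lists and were chosen for this paragraph after their values were seen. NRAS, a RAS GTPase, had 79.8 and 100.4 CPM in the sh-SH2D1A libraries, against 216 and 226 CPM in the sh-NC libraries, a log2 change of -1.29 ± 0.14 (adjusted p = 0.00385 by edgeR). MAP2K2, the kinase MEK2 that phosphorylates ERK, had 68.9 and 52.4 CPM with sh-SH2D1A, against 171 and 141 CPM with sh-NC, a log2 change of -1.36 ± 0.16 (adjusted p = 0.00552). The arms of both were apart, and both passed at day 10 as well, with log2 changes of -1.02 ± 0.04 and -0.80 ± 0.04 from control libraries of that day.

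Other falls included CD38, a surface enzyme of activated and immature lymphocytes, with 37.4 and 44.1 CPM with sh-SH2D1A, against 99 and 103 CPM with sh-NC, a log2 change of -1.31 ± 0.14 (adjusted p = 0.00385). LMNB1, which encodes lamin B1 of the nuclear envelope, had 149 and 149 CPM with sh-SH2D1A, against 302 and 313 CPM with sh-NC, a log2 change of -1.04 ± 0.11 (adjusted p = 0.00385). TERT, the catalytic subunit of telomerase, had 11.2 and 7.04 CPM with sh-SH2D1A, against 28 and 21.7 CPM with sh-NC, a log2 change of -1.44 ± 0.26 (adjusted p = 0.0262). Each was lower in both sh-SH2D1A libraries than in either control. NEAT1, a nuclear long noncoding RNA that scaffolds paraspeckles, was higher, with 291 and 278 CPM with sh-SH2D1A, against 125 and 117 CPM with sh-NC and a log2 change of 1.24 ± 0.11 (adjusted p = 0.00221). These 6 genes passed without each library in turn.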
